A study of Ovis aries with 3 samples.

Results

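MiR-208a, miR-208b and miR-499 are microRNAs (miRNAs) that lie inside genes for myosin heavy chains, the motor proteins of the muscle filament. They were described here in left ventricular (LV) tissue of sheep. Members were all entries of the deposited merged count tables named miR-208a, miR-208b, miR-499, miR-499a or miR-499b, with or without an arm, which gave 10 of 636 entries (621 distinct entries). The known sheep (oar-) entries held no member, and all 10 were perfect matches of human (hsa-), mouse (mmu-) or rat (rno-) miRNAs. The library of recovered sheep (HF-R) was a pool of RNA from 4 Coopworth ewes, taken 26 days after pacing had ended. The library of heart failure (HF) pooled 6 ewes whose LV had been paced at about 220 bpm for 13 days, and the control library (Cont) pooled 4 normal ewes that were not paced. The methods describe surgical instrumentation of the sheep without exempting controls, and a pacing electrode for HF and HF-R alone. The methods give the rate and duration of pacing under HF only. The sample descriptions state other values, with 225 bpm and 14 days of pacing for HF. For HF-R they state an additional 14 days before harvest instead of 26. Each condition had 1 library, so the spread between sheep cannot be seen, all intervals below cover counting error only, and no p-value between conditions was computed.

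In mammals miR-208a is encoded in an intron of MYH6, the gene of the fast α-myosin heavy chain, and miR-208b in an intron of MYH7, the gene of the slower β-myosin heavy chain. MiR-499 is encoded in an intron of MYH7B. Each miRNA is cut from the transcript of its host gene, so the counts are an indirect readout of host transcription, and the host mRNAs themselves were not measured in these libraries. The adult ventricle of large mammals uses mostly β-myosin, and in the mouse miR-208a is needed for the rise of β-myosin under stress. In the gene table given for the sheep assembly ARS-UI_Ramb_v3.0, MYH7B lies on chromosome 13 between GSS and TRPC4AP, and the deposited miR-499 loci are on chromosome 13 of the assembly used by the authors (Oar_v4.0).

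The mature sequences that the results turn on are given 5′ to 3′ in the DNA letters of the deposited tables, with the seed (bases 2 to 8) in capitals.
miR-208b-3p: aTAAGACGaacaaaaggtttgt
miR-208a-3p: aTAAGACGagcaaaaagcttgt
miR-499a-5p: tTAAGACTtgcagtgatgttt
miR-499a-3p: aACATCACagcaagtctgtgct
MiR-208b-3p and miR-208a-3p have the same seed. Counted from the 5′ end of miR-208b-3p they differ by 3 substitutions, A10G, G16A and T18C, all outside the seed. The seed of miR-499a-5p shares its first 6 bases with theirs. On Oar_v4.0 miR-208b-3p is at chr7:21111702-21111723 and miR-208a-3p at chr7:21140684-21140705, both on the plus strand and 28982 bases apart from start to start. A second locus for miR-208b-3p was listed on an unplaced scaffold with the same counts, and reads cannot be divided between the loci. MiR-499a-5p is at chr13:63735159-63735179 and miR-499a-3p at chr13:63735196-63735217, also on the plus strand.

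The libraries held 5990078 counts in HF-R, 6154795 in HF and 4711131 in Cont over the distinct entries, and levels are CPM, counts scaled to these totals. Called higher were entries with a CPM ratio of 1.5 or more, called lower those with the inverse or less, in both cases only if the Clopper-Pearson 95% interval excluded 1. The median entry was not at a ratio of 1: over the 356 distinct entries that averaged 10 counts or more, the median log2 ratio was 0.16 in HF/Cont, -0.03 in HF-R/Cont and -0.29 in HF-R/HF. With edgeR's TMM factors these medians were -0.19 in HF/Cont, -0.03 in HF-R/Cont and 0.06 in HF-R/HF, so ratios are also given relative to the median entry. Summed levels of the marker lists differed between the libraries, and in most lists 1 entry carried the sum. The muscle entries miR-1, miR-133 and miR-206 summed to 353321 CPM in HF-R, 279174 in HF and 286794 in Cont. Without miR-1-3p they summed to 37696 in HF-R, 38703 in HF and 30592 in Cont. That remainder includes mmu-miR-1b-5p, which had 50314 counts in HF-R, 81212 in HF and 31982 in Cont. The paper maps this entry to the strand opposite miR-1-3p, and its sequence is the reverse complement of bases of miR-1-3p. Its HF-R/HF ratio was 0.637, while every other entry of the list that averaged 10 counts or more had a ratio above 1. The highest sum in HF therefore rests on mmu-miR-1b-5p. The fibroblast list (miR-199a, miR-199b, miR-214, miR-21 and miR-29) summed to 28030 CPM in HF-R, 20601 in HF and 15191 in Cont, and without oar-miR-21 to 4723 in HF-R, 5999 in HF and 3894 in Cont, so HF and not HF-R was then the highest. Of its 11 entries that averaged 10 counts or more, 5 were called higher in HF/Cont, 4 higher in HF-R/Cont, and 2 higher and 2 lower in HF-R/HF. Of all 356 entries 81 were called higher and 28 lower in HF/Cont. In HF-R/Cont 17 were called higher and 40 lower, and in HF-R/HF 18 higher and 83 lower. The median log2 ratio of the 11 fibroblast entries was 0.67 in HF/Cont, 0.57 in HF-R/Cont and -0.56 in HF-R/HF. The endothelial list also names miR-126, which had no entry, so its sum covers miR-10, miR-221 and miR-222 alone. These entries summed to 3343 CPM in HF-R, 3725 in HF and 4011 in Cont, and without oar-miR-10b to 2072 in HF-R, 1982 in HF and 1954 in Cont. Of the 7 endothelial entries that averaged 10 counts or more, oar-miR-221 and miR-221-5p were called higher and oar-miR-10b lower in HF-R/Cont. The median log2 ratio was 0.42 in HF/Cont, 0.27 in HF-R/Cont and -0.05 in HF-R/HF. The smooth muscle list (miR-143 and miR-145) summed to 89129 CPM in HF-R, 83643 in HF and 102109 in Cont, and without miR-143-3p to 936 in HF-R, 1137 in HF and 858 in Cont. The erythroid list (miR-451, miR-144 and miR-486) summed to 2899 CPM in HF-R, 3446 in HF and 3473 in Cont, and without miR-486-5p to 128 in HF-R, 189 in HF and 236 in Cont. Of its 5 entries 2, miR-451-5p and miR-144-3p, were called lower in HF-R/Cont. The leukocyte list (entries of miR-223, miR-142 and miR-155) summed to 320.2 CPM in HF-R, 326 in HF and 339 in Cont. The leukocyte list also names miR-146a, which had no entry. MiR-206, the marker of skeletal muscle, stood at 7.18 CPM in HF-R, 6.82 in HF and 5.09 in Cont, liver miR-122 at 0.501 in HF-R, 5.85 in HF and 0.637 in Cont, and brain miR-124 and miR-9 together at 43.4 in HF-R, 92.8 in HF and 86.8 in Cont. The part of these lists in the results below was not tested. In bulk tissue, fewer cells of a type and less RNA per cell cannot be told apart.

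Nearly all counts of the members came from 1 arm of miR-499. MiR-499a-5p held 97.5% of the members' counts in HF-R, 97.4% in HF and 97.7% in Cont. MiR-208b-3p held 2.34% in HF-R, 2.38% in HF and 2.10% in Cont, and every other member held less than 0.15%. The levels therefore had the same order in each library, with miR-499a-5p first, miR-208b-3p second, miR-499a-3p after it and the remaining 7 members lower.

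**Figure D1:**
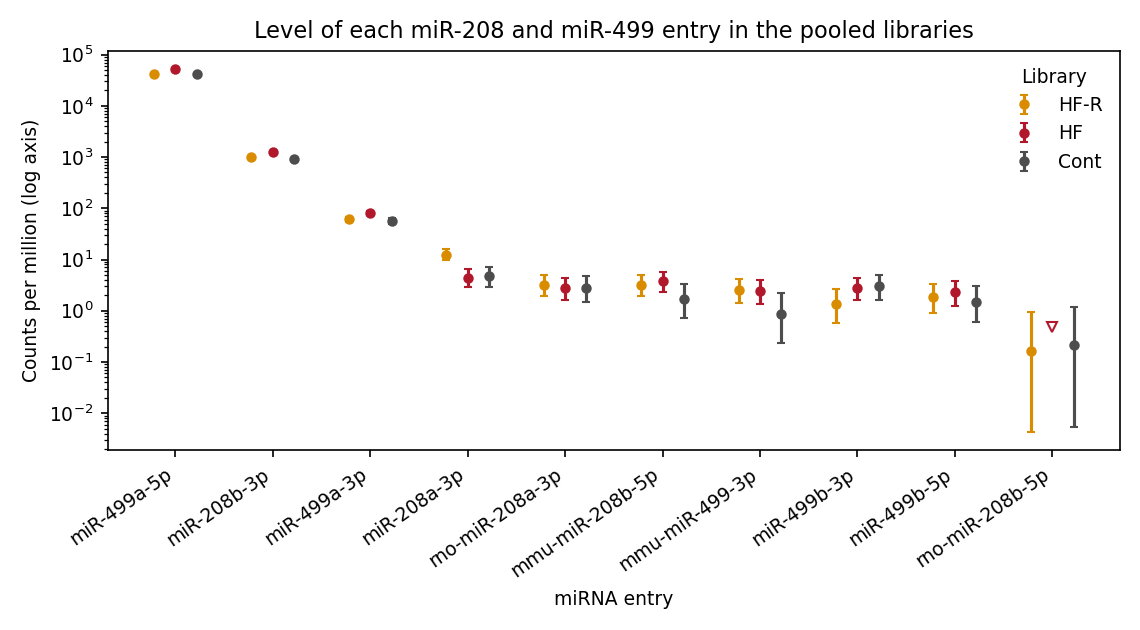
Level of each member in CPM (log axis) in the HF-R, HF and Cont libraries, with exact Poisson 95% intervals; the open triangle is the limit of 3 counts that a count of 0 allows. MiR-208a-3p in HF-R (12.5 CPM) lies above its level in HF (4.39) and Cont (4.67), while miR-208b-3p (1279 CPM) and miR-499a-5p (52435 CPM) are highest in HF on the CPM scale, an order that TMM factors change.

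The β-myosin miRNA miR-208b-3p (hsa-/mmu-/rno-miR-208b-3p) had its highest CPM in HF, with HF-R between HF and Cont, although with TMM factors its HF-R/HF ratio was 1.02 and its HF/Cont ratio 1.09. It had 6108 counts in HF-R, 7873 in HF and 4316 in Cont, which are 1020 CPM (95% interval 994 to 1046) in HF-R, 1279 (1251 to 1308) in HF and 916 (889 to 944) in Cont. On the CPM scale the 3 intervals do not overlap, and HF-R was closer to Cont than to HF. With TMM factors the HF-R/Cont ratio was 1.12 and the HF-R/HF ratio 1.02, and with DESeq2 size factors 1.16 and 0.969. HF-R was then closer to HF. With the total of the perfect match tables they were 1.00 and 0.725, so the library that HF-R lies closer to depends on the scaling. The HF/Cont ratio was 1.40 (1.35 to 1.45), which is under 1.5 and was not called. It was 1.25 (1.201 to 1.29) relative to the median entry, and 33.7% of the 356 entries had a larger HF/Cont ratio. The HF-R/Cont ratio was 1.11 (1.07 to 1.16) and the HF-R/HF ratio 0.80 (0.77 to 0.82). Relative to the median entry the HF-R/HF ratio was 0.976 (0.944 to 1.01), so between these libraries miR-208b-3p differed about as much as the typical entry. Its rank among the distinct entries was 42 in HF-R, 44 in HF and 48 in Cont.

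The α-myosin miRNA miR-208a-3p (hsa-/mmu-miR-208a-3p) showed a different order, with its highest level in HF-R. It had 75 counts in HF-R, 27 in HF and 22 in Cont. These are 12.5 CPM (9.85 to 15.7) in HF-R, 4.39 (2.89 to 6.38) in HF and 4.67 (2.93 to 7.07) in Cont. The HF-R interval lies above both others, and those of HF and Cont overlap almost wholly. The HF-R/Cont ratio was 2.68 (1.65 to 4.53) and the HF-R/HF ratio 2.85 (1.82 to 4.61), and both were called higher. For HF/Cont it was 0.94 (0.52 to 1.73), an interval that includes 1, so these few counts give no direction. Over all entries tested, 4.78% were called higher in HF-R/Cont and 5.06% in HF-R/HF, while 1.12% had a larger HF-R/Cont ratio than miR-208a-3p and 0.843% a larger HF-R/HF ratio. Under the 7 other scalings the HF-R/Cont ratio ran between 2.41 and 2.92 and the HF-R/HF ratio between 2.60 and 3.65. The passenger strand, miR-208a-5p, was listed only in the tables of each library, with 1 count in HF-R and 1 in Cont.

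The balance of both miRNAs can be read inside a library, where no scaling enters. There were 81.4 counts of miR-208b-3p (64.9 to 104) for each count of miR-208a-3p in HF-R, 292 (200.3 to 443) in HF and 196 (129 to 313) in Cont. The ratio in HF-R was 0.279 times (0.173 to 0.440) that in HF and 0.415 times (0.245 to 0.677) that in Cont, by exact conditional 95% intervals. The ratio in HF was 1.49 times (0.806 to 2.71) that in Cont, an interval that includes 1. Put as a share, miR-208a-3p was 1.21% (0.955 to 1.52) of the exact 22 nt 3p reads of both miRNAs in HF-R, 0.342% (0.225 to 0.497) in HF and 0.507% (0.318 to 0.767) in Cont. The β-myosin miRNA thus outnumbered the α-myosin miRNA in each library.

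**Figure D2:**
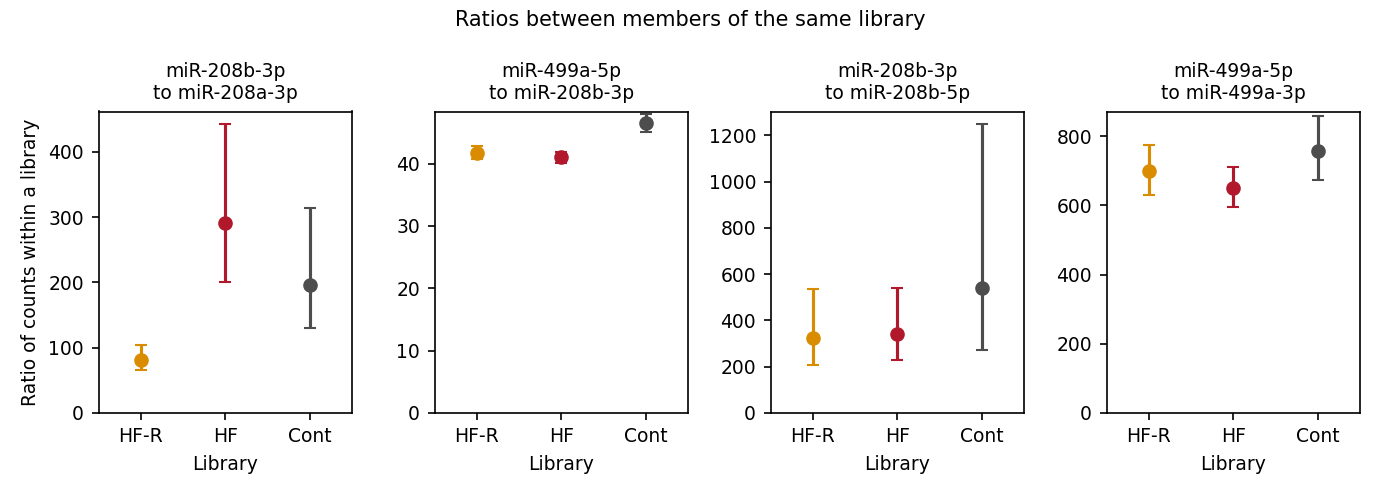
Ratios of counts between members of the same library (linear axes from 0, 95% intervals), for HF-R, HF and Cont. The ratio of miR-208b-3p to miR-208a-3p is 81.4 in HF-R, under the intervals of HF (292) and Cont (196), while miR-499a-5p to miR-208b-3p stays between 41.0 and 46.5.

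MiR-499a-5p (hsa-/mmu-/rno-miR-499a-5p), the main product of the MYH7B locus, was the 7th most abundant of the distinct entries in HF-R and the 6th in HF and in Cont. It had 254773 counts in HF-R, 322724 in HF and 200857 in Cont, or 42532 CPM in HF-R, 52435 in HF and 42635 in Cont. HF was the high library, and HF-R and Cont could not be told apart by counting error. The HF/Cont ratio was 1.23 (1.22 to 1.24), the HF-R/Cont ratio 0.998 (0.992 to 1.00) and the HF-R/HF ratio 0.811 (0.807 to 0.815), none of them called. With TMM factors the HF/Cont ratio was 0.964 and the HF-R/HF ratio 1.04, so its direction between HF and the other libraries depends on the scaling. Relative to the median entry the ratios were 1.10 for HF/Cont and 0.993 for HF-R/HF.

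MiR-499a-5p and miR-208b-3p kept nearly the same ratio to each other. There were 41.7 counts of miR-499a-5p (40.7 to 42.8) for each count of miR-208b-3p in HF-R, 41.0 (40.1 to 41.9) in HF and 46.5 (45.2 to 48.0) in Cont. The ratio in HF was 0.881 times (0.848 to 0.915) that in Cont and the ratio in HF-R 0.896 times (0.861 to 0.932), so miR-208b-3p had the larger share in both. HF-R and HF did not differ beyond counting error (1.02, 0.984 to 1.05).

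The less abundant arms were counted too. MiR-499a-3p (hsa-/rno-miR-499a-3p) had 365 counts in HF-R, 496 in HF and 265 in Cont, or 60.9 CPM (54.8 to 67.5) in HF-R, 80.6 (73.7 to 88.0) in HF and 56.2 (49.7 to 63.4) in Cont. HF was again the high library on the CPM scale, and the intervals of HF-R and Cont overlap. The HF/Cont ratio of miR-499a-3p, 1.43 (1.23 to 1.67), was not called. With TMM factors it was 1.12 and the HF-R/HF ratio 0.967, and with DESeq2 size factors 1.23 and 0.919. How far HF stood above the other libraries therefore depends on the scaling. There were 698 counts of the 5p arm for each count of the 3p arm in HF-R, 651 in HF and 758 in Cont, and the HF ratio was 0.858 times (0.737 to 0.999) that in Cont. For miR-208b the 3p arm dominated, with 321 counts for each count of mmu-miR-208b-5p in HF-R, 342 in HF and 539.5 in Cont. Mmu-miR-208b-5p itself had 19 counts in HF-R, 23 in HF and 8 in Cont, and its HF/Cont ratio of 2.20 had an interval that includes 1 (0.9503 to 5.69). With partly matching reads added the ratio was 1.00. The rat entry miR-208b-5p, 2 bases shorter, had 1 count in HF-R, no count in HF, where 3 counts, the limit that a count of 0 allows, are 0.487 CPM, and 1 count in Cont. It was the only member under the minimum mean of 10 counts.

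Of the 9 members that averaged 10 counts or more, none was called for HF/Cont, against 30.6% of all entries. MiR-208a-3p was the 1 member called in HF-R/Cont, against 16% of all entries in either direction, and the 1 member called in HF-R/HF, against 28.4%. The median log2 ratio of the 9 members was 0.48 in HF/Cont, 0.20 in HF-R/Cont and -0.30 in HF-R/HF, beside 0.16, -0.03 and -0.29 over all entries. The members are arms and read forms of the same few hairpins, and each median is the value of 1 entry. These are miR-208b-3p in HF/Cont, rno-miR-208a-3p in HF-R/Cont and miR-499a-5p in HF-R/HF. Rno-miR-208a-3p had 19 counts in HF-R and 13 in Cont, with a log2 interval of -0.89 to 1.34, so the HF-R/Cont median gives no direction. Of the muscle list, 1 of 9 entries (mmu-miR-1b-5p) was called higher in HF/Cont and lower in HF-R/HF, and none was called in HF-R/Cont. Its median log2 ratios were 0.10, 0.30 and 0.14 in the same order.

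**Figure D3:**
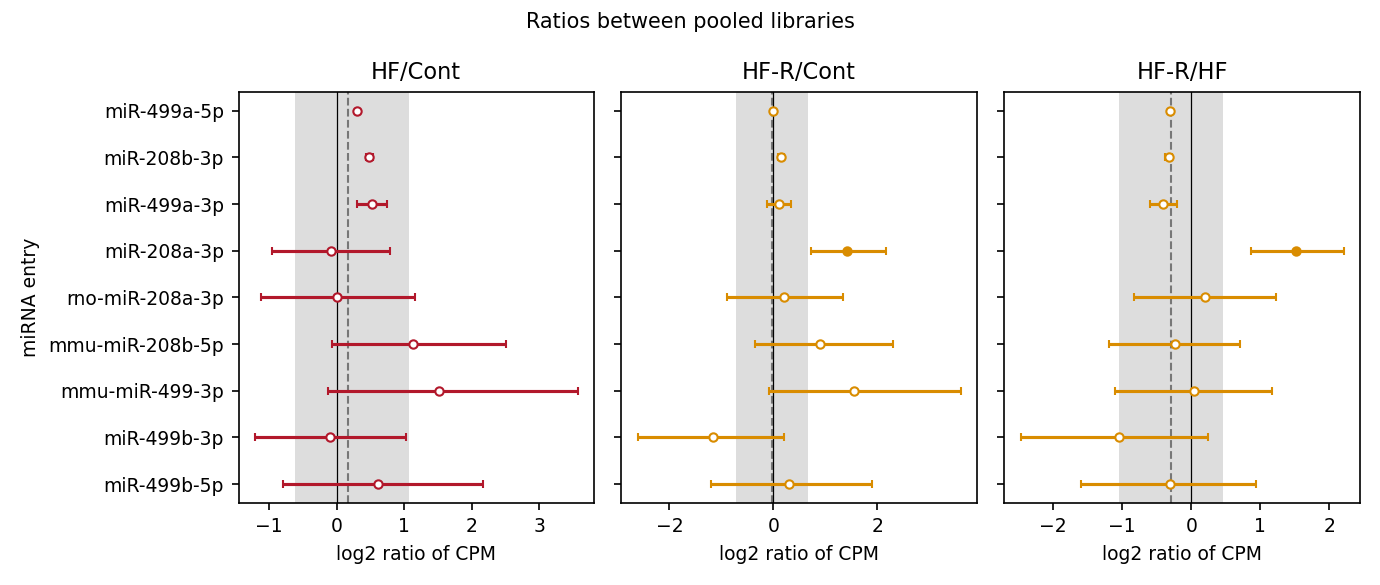
Log2 ratio of CPM of 9 members in each comparison between libraries, by 95% intervals and filled points for called members. The grey band runs from percentile 10 to percentile 90 of all 356 entries and the dashed line is their median, and only miR-208a-3p in the HF-R comparisons is called.

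Set against miR-1-3p, another cardiomyocyte miRNA and the most abundant entry, the HF/Cont ratio of miR-208b-3p was 1.49 and that of miR-499a-5p 1.31. The HF-R/Cont ratio was 0.903 for miR-208b-3p and 0.810 for miR-499a-5p, and the HF-R/HF ratio 0.607 for miR-208b-3p and 0.618 for miR-499a-5p. The CPM ratio of miR-1-3p itself was 1.23 in HF-R/Cont and 1.31 in HF-R/HF. Relative to miR-1-3p the median log2 ratio of all entries was 0.26 in HF/Cont, -0.33 in HF-R/Cont and -0.68 in HF-R/HF. The typical entry was thus also lower in both HF-R comparisons. MiR-208a-3p remained higher in HF-R by this measure, with an HF-R/Cont ratio of 2.18 and an HF-R/HF ratio of 2.17. This scaling was chosen after the data were seen.

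Among 189 entries that averaged 100 counts or more, the profile over the 3 libraries closest to that of miR-208b-3p was miR-27a-3p, with a largest difference of 0.015 on the log2 scale. Rno-miR-3586-5p (0.033), miR-98-5p (0.038), miR-145-5p (0.074) and miR-4306 (0.078) followed. For miR-499a-5p they were miR-4318 (0.014), oar-miR-411a-5p (0.028), miR-224-5p (0.033), oar-miR-30c (0.042) and miR-497a-5p (0.053). Of these entries rno-miR-3586-5p, miR-4306 and miR-4318 were listed as 70 to 99% matches, and the others as perfect matches. MiR-208b-3p and miR-499a-5p differed from each other by at most 0.11 on this scale. A profile of 3 values from 3 libraries is met by many entries, and 11 entries lay within 0.1 of miR-208b-3p and 12 of miR-499a-5p.

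The exact reads of the members had several forms. The rat 18 nt entries of miR-208a-3p and miR-208b-3p end 4 bases before the human ones. The 18 nt form of miR-208b-3p, which was listed only in the tables of each library, had 441 counts in HF-R, 485 in HF and 432 in Cont. It made up 6.73% (6.14 to 7.37) of the 18 and 22 nt reads in HF-R, 5.80% (5.31 to 6.33) in HF and 9.10% (8.30 to 9.95) in Cont, so Cont held the largest share. The CPM of this short form were 73.6 in HF-R, 78.8 in HF and 91.7 in Cont, an HF/Cont ratio of 0.859 (0.753 to 0.981) where that of the 22 nt form was 1.40. The 18 nt form of miR-208a-3p (rno-miR-208a-3p) had 19 counts in HF-R, 17 in HF and 13 in Cont, and its HF-R/Cont ratio was 1.15 (0.539 to 2.53). With both forms of miR-208a-3p added, the HF-R/Cont ratio was 2.11 (1.42 to 3.21) and the HF-R/HF ratio 2.20 (1.52 to 3.22).

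**Figure D4:**
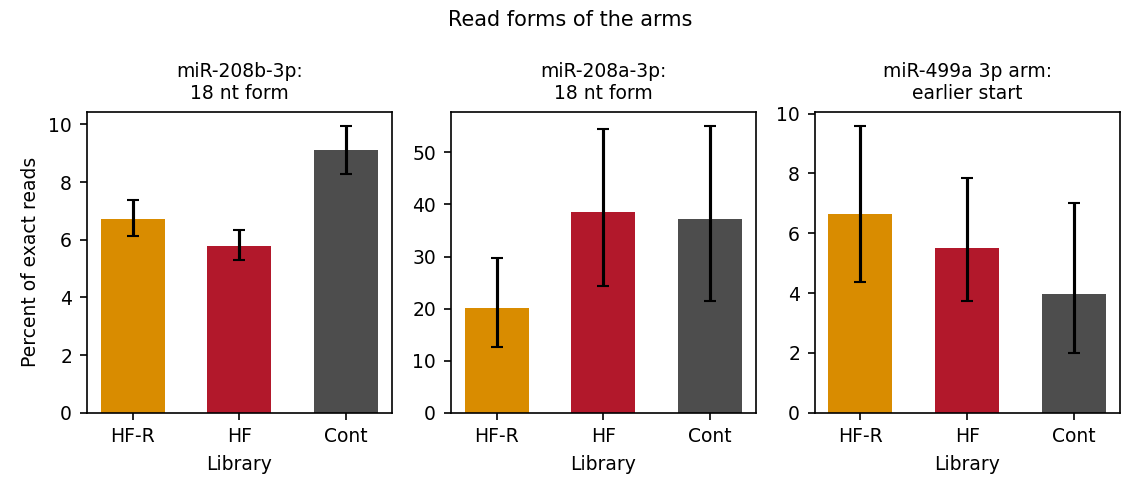
Share of read forms among exact reads in HF-R, HF and Cont (bars from 0, Clopper-Pearson 95% intervals). The 18 nt form of miR-208b-3p is 6.73% in HF-R, 5.80% in HF and 9.10% in Cont; the intervals of the other shares overlap.

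The reads counted for the miR-499b entries were shifted reads of miR-499a. In the human genome miR-499b is the antisense partner of miR-499a, and here both entries were placed on the minus strand of the same locus, with entry sequences aacatcactgcaagtcttaaca (hsa-miR-499b-3p) and acagacttgctgtgatgttca (hsa-miR-499b-5p). The reads listed for them are the reverse complements of these, that is plus-strand reads that begin 2 bases before miR-499a-5p and 2 bases before miR-499a-3p. They are shown with bases 2 to 8 in capitals, which a 2-base shift changes.
read of miR-499b-3p: tGTTAAGActtgcagtgatgtt
read of miR-499b-5p: tGAACATCacagcaagtctgt
mmu-miR-499-3p: gAACATCAcagcaagtctgtgct
The read of miR-499b-3p had 8 counts in HF-R, 17 in HF and 14 in Cont, at most 0.00697% of the exact 5p reads of miR-499a. On the 3p arm the shifted forms begin 1 or 2 bases earlier. On the 5p arm only a 2-base shift was counted, so the frequency of shifted starts was not compared between the arms. Mmu-miR-499-3p, which begins 1 base earlier, had 15 counts in HF-R, 15 in HF and 4 in Cont, and the read of miR-499b-5p had 11 in HF-R, 14 in HF and 7 in Cont. Together these were 6.65% (4.39 to 9.59) of the exact 3p reads in HF-R, 5.52% (3.73 to 7.84) in HF and 3.99% (2.01 to 7.02) in Cont, with intervals that overlap. Library-specific counts were used for miR-499b, because the merged table repeats the counts of miR-499a-5p for miR-499b-3p and gives miR-499b-5p the counts that the library tables give miR-499b-3p. The HF/Cont ratio of miR-499b-5p was thus taken from 14 and 7 counts and not from 17 and 14.

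The tables of each library also list partly matching reads (70 to 99% of the entry), as sequences with 1 total count for the entry. For miR-208b-3p this total was 8081 in HF-R, 9339 in HF and 5711 in Cont, more than its exact counts in each library, over 641 listed reads in HF-R, 663 in HF and 480 in Cont. Of these reads 98.6% in HF-R, 98.04% in HF and 98.5% in Cont matched miR-208b-3p best among the members. For miR-208a-3p the total was 159 in HF-R, 122 in HF and 84 in Cont, and only 28 of 56 listed reads in HF-R, 20 of 43 in HF and 20 of 41 in Cont matched it best. Another 17 reads in HF-R, 17 in HF and 15 in Cont were closer to miR-208b-3p. One of them, listed in all 3 libraries, is miR-208b-3p with the single substitution A10G, shown with that base in capitals.
read under miR-208a-3p: ataagacgaGcaaaaggtttgt
Under miR-208a-3p 3 reads in HF-R, 4 in HF and 4 in Cont matched miR-208b-5p best, and under miR-208b-5p 7 reads in HF-R, 6 in HF and 7 in Cont matched miR-208a-3p best. The reverse complement of miR-208b-5p shares a run of 14 bases with miR-208a-3p.

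Under miR-499a-3p 79 of 180 listed reads in HF-R, 99 of 202 in HF and 81 of 159 in Cont matched miR-499a-5p best. One such read, listed in all 3 libraries, is miR-499a-5p with the substitution A12T (counted from its 5′ end, in capitals).
read under miR-499a-3p: ttaagacttgcTgtgatgttt
The partial totals of miR-208a-3p and miR-499a-3p therefore include reads of other members, and the counts of single reads are not given. If each listed read is taken as at least 1 count, exact reads and reads closest to miR-208a-3p came to at least 103 counts in HF-R, 47 in HF and 42 in Cont. The HF-R/Cont ratio of that sum can then lie anywhere between 0.953 and 3.86, so the higher level of miR-208a-3p in HF-R rests on its exact reads. Lists for miR-499a-5p were not analysed here.

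**Figure D5:**
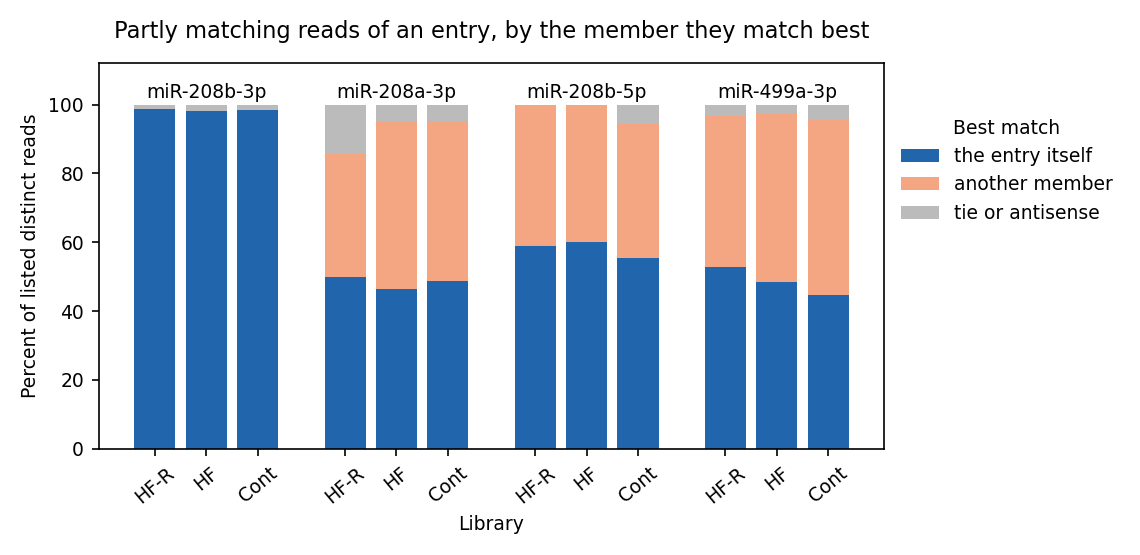
Percent of the distinct partly matching reads listed under an entry that match the entry itself, another member, or neither clearly (tie or antisense), in HF-R, HF and Cont. Of the reads under miR-208b-3p at least 98.04% match it best, and of those under miR-208a-3p at most 50%.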

How the data were processed

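Small RNA of LV tissue was sequenced from 3 pooled libraries. The authors kept reads of 15 to 30 nt, used Blast for alignment to miRBase v21 and Bowtie for mapping to Oar_v4.0 (versions not given in the sources used here). The deposited values are raw counts per miRNA entry, and the deposited mean signal is an average by the authors over libraries with a value. A blank was read as 0 counts. Entries with the same counts at overlapping loci were taken once, which left 621 of 636 for the totals.

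Ratios of CPM have Clopper-Pearson 95% intervals given the sum of both counts, single counts exact Poisson intervals, and ratios of ratios exact conditional intervals. PCR reads without molecular identifiers are not independent molecules, so intervals and floors (3 counts) cover counting error only. A read was assigned to the member with the best ungapped overlap of at least 12 nt, each mismatch costing 3 matches.

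Named miRNAs were all members, their partner arms in the tables of each library, and the 5 other entries averaging 100 counts or more whose centred log2 profile was closest to miR-208b-3p or miR-499a-5p, beside the fixed muscle and cell type lists. The members and lists were chosen with earlier results of these data known. Alternatives were other scalings, filters, fold thresholds and count tables. The code was tested on simulated data. Scaling factors came from edgeR 4.0.16 (TMM) and from DESeq2 1.42.0 in R 4.3.3. Everything else ran in Python 3.11.15 (scipy 1.17.1, numpy 2.4.6; figures in matplotlib 3.10.9).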

Additional observations from a re-analysis of the deposited data

Results flagged for a closer look

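The partial (70 to 99%) matches of the members lie outside the comparisons of exact reads, and several of their totals differed from the Cont library beyond counting error, most of them upward. For HF/Cont the CPM ratio was 1.25 for miR-208b-3p (interval 1.21 to 1.29), 1.33 for miR-499a-3p and 1.33 for mmu-miR-499-3p, whose listed reads are nearly all those of miR-499a-3p. For HF-R/Cont it was 1.11 for miR-208b-3p, 1.49 for miR-208a-3p (1.14 to 1.96) and 1.51 for rno-miR-208a-3p. The sequence of rno-miR-208a-3p is the first 18 nt of miR-208a-3p at the same locus, so the totals of both cannot be taken as separate results. The reads they share were not counted. Below Cont were the HF-R totals of miR-499a-3p, with an HF-R/Cont ratio of 0.827 (0.755 to 0.906), and of mmu-miR-499-3p, with 0.826 (0.754 to 0.904), while the exact reads had ratios of 1.08 (0.922 to 1.27) and 2.95 (0.940 to 12.2). Reads closer to other members are part of the totals of miR-208a-3p and miR-499a-3p.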

How the results depend on the processing

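MiR-208a-3p was called higher in HF-R/Cont and in HF-R/HF under all 7 other scalings. Its HF-R/HF ratio was 1.61 with 70 to 99% matches added, which include reads of miR-208b-3p. For miR-208b-3p the HF/Cont ratio was 1.09 with TMM factors, 1.19 with DESeq2 size factors, 1.82 on raw counts, 1.49 relative to miR-1-3p and 1.31 with 70 to 99% matches added. Its HF-R/Cont ratio was 1.21 without miR-1 entries, 1.01 with the total of hsa-, mmu- and rno- entries, 1.00 with the total of the perfect match tables, 1.42 on raw counts and 0.903 relative to miR-1-3p. Its HF-R/HF ratio was 1.02 with TMM, 0.969 with DESeq2, 0.880 without miR-1, 0.732 and 0.725 with those 2 totals, 0.607 relative to miR-1-3p and 0.847 with partial matches. For miR-499a-5p the HF/Cont ratio was 0.964 with TMM, 1.05 with DESeq2, 1.21 without miR-1, 1.24 with miR-499a-5p left out of the total, 1.21 and 1.22 with the 2 totals, 1.61 on raw counts, 1.22 with all entries kept and 1.31 relative to miR-1-3p. In the same order its HF-R/HF ratio was 1.04, 0.986, 0.896, 0.803, 0.745, 0.738, 0.789, 0.827 and 0.618. Its HF-R/Cont ratio was 1.04 with DESeq2, 1.09 without miR-1, 0.905 and 0.897 with the 2 totals, 1.27 on raw counts, 1.01 with all entries kept and 0.810 relative to miR-1-3p.

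The number of members called for HF/Cont was 5 of 9 on raw counts (46.6% of all entries), 2 relative to miR-1-3p (33.1%) and 3 with a fold of 1.2 (47.5%), against 0. For HF-R/Cont it was 2 without miR-1 (14.6%), on raw counts (22.8%) and relative to miR-1-3p (29.5%), and 0 with a mean of at least 100 (15.1%), a minimum that leaves miR-208a-3p out. For HF-R/HF it was 5 relative to miR-1-3p (57.3%), 3 with partial matches (share of all entries not computed), 0 with that minimum (29.7%) and 4 with a fold of 1.2 (49.4%). The ratio of miR-208b-3p to miR-208a-3p with partial matches was 60.6 in HF-R, 116 in HF and 94.6 in Cont, and its HF-R value was 0.525 times that in HF. With the 18 nt entry of miR-208a-3p added it was 179 in HF and 123 in Cont, and 190.0 in HF with the 18 nt forms of both. For miR-208b-3p to miR-208b-5p it was 197 in HF-R, 313 in HF and 239 in Cont with partial matches, and the HF value was then 1.31 times that in Cont, against 0.634 times with exact reads. The 18 nt forms of both and the scaling to miR-1-3p were chosen after the data were seen. The cause of these shifts was not tested. Adding partial matches was not run for miR-499a-5p. No paired analysis was possible because each condition has 1 pooled library, and for the same reason no replicate could be left out.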
